A study of Mus musculus with 6 samples.

Results

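The kinesin motor genes are the rows of the deposited mouse gene table whose symbol begins with Kif followed by a digit, 38 of 23358 rows. They were chosen by symbol alone, but the family was picked out with the NU7441 results of these samples already known, so its counts in that comparison are a description and support nothing further. The RNA came from MC3T3-E1, an established line of pre-osteoblasts from the calvaria of C57BL/6 mice, grown to confluence, and no genetic change is named in the labels. One group of 3 samples had received NU7441, which blocks DNA-PK, a kinase of DNA break repair, at 1 µM for 16 h, and the other group of 3 the solvent DMSO for the same time. Per the design text, triplicates were pooled within each of 3 independent experiments, and no label ties a DMSO sample to the NU7441 sample with the same number. All samples come from 1 cell line. Of the 38 rows, 37 are genes of the kinesin family. The remaining one, Kif4-ps, is by its symbol a pseudogene, and it had 0 counts in every sample.

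Kinesins are motor proteins that use ATP to walk along microtubules or to take their ends apart. One set acts in dividing cells, where it pushes spindle poles apart, aligns chromosomes and builds the midzone at which the cell is cut. Another set carries vesicles, organelles and protein complexes through the cytoplasm in any cell, dividing or not, and a few members serve the cilium and the centriole. Pre-osteoblasts carry a primary cilium, which the Kif3 motor helps to build.

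By textbook role 12 of the rows were classed as mitotic, 13 as transport, 6 as cilium and centriole and 6 as other, with the pseudogene apart. The edgeR test with its filter on low counts covered 32 of the 38. The 6 rows left out were Kif2b, Kif1a, Kif19a, Kif12, Kif26a and Kif4-ps, none with more than 8 counts in any sample. Of the 32 tested, 31 reached the filter's level of 0.185 counts per 1e6 counts (CPM) in all samples, the exception being Kif17 in 1 DMSO sample, so no tested member entered through 1 group alone. Total gene counts lay between 47312968 and 71292628 per sample. All counts are even, so each read pair may have entered as 2, in which case printed counts, totals and the filter's 10 counts hold 2 for each fragment. With all counts halved, the same numbers of kinesins were called. Of 7 osteoblast markers, the collagens dominated, with Col1a1 at 18580 ± 699 CPM (SD, n = 3) in DMSO and 18600 ± 176 in NU7441, whereas Bglap, a marker of mature osteoblasts, had 2 to 12 counts. Ibsp, a bone matrix protein, fell from 13.1 ± 1.80 to 7.09 ± 1.94 CPM (-0.89 ± 0.15 on the log2 scale, edgeR adjusted p = 0.00041) and Alpl, the bone alkaline phosphatase, from 39.9 ± 4.68 to 32.7 ± 2.73 (-0.29 ± 0.07, edgeR adjusted p = 0.006), and both missed the threshold in edgeR's robust fit (adjusted p = 0.059 and 0.095). Of the markers of other cell types, Stmn2 of neurons, Ptprc of leukocytes, Kdr of endothelium, Acan of cartilage and Epcam of epithelium had 0 counts throughout. The adipocyte list had no such marker, with Fabp4 at 14 to 42 counts and Adipoq and Plin1 found in NU7441 sample 2 only. Other markers of some lists were detected as well. The 3 cartilage markers summed to 79.8 to 81.9 CPM in DMSO and 86.9 to 91.0 in NU7441, mostly Sox9 (0.14 ± 0.03, called higher) with Col2a1 (0.23 ± 0.08, edgeR adjusted p = 0.046). The neuron markers summed to 8.17 to 10.2 and 9.48 to 10.2 CPM, with Tubb3 lower (-0.53 ± 0.14) and Syn1 higher (0.32 ± 0.11, edgeR adjusted p = 0.037), and the macrophage markers, Cd68 and Csf1r, to 2.02 to 2.73 and 1.95 to 2.13. The calls of Col2a1 and Syn1 were lost with library size only and with some single samples left out, and the part of these markers in the results was not tested.

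Promoters are shown first, since a short word recurs in those of the mitotic kinesins. Genes of late cell cycle phases often carry a cell cycle genes homology region (CHR), an element near the start of transcription through which the MuvB complexes act, and a CCAAT box bound by the factor NF-Y. RefSeq promoter windows (assembly GRCm38.p6, 250 bases before to 50 after a start) were found for 31 of the 38 members, and Kif5a, Kif5b, Kif13b, Kif19a, Kif20a, Kif21b and Kif4-ps had none. The windows below are written 5′ to 3′ on the strand of the gene, with capitals for the CHR word TTTGAA, read as TTCAAA on the other strand, and for the word CCAAT, read as ATTGG on the other strand. Kif11, Kif18b and Kif23 hold both words near the start, Kif18a is the mitotic kinesin with neither, Kif24 is the gene outside the mitotic class with the deepest fall among those called, and Kif3a is a transport kinesin that rose.
Kif11, chr19:37376132-37376431, plus strand: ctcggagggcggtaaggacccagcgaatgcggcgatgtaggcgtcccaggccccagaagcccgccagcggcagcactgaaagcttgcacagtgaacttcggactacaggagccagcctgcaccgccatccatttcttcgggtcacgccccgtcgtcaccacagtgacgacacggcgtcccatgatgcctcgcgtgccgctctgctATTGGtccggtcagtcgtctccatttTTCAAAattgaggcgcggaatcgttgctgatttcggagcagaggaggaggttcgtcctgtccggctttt
Kif18b, chr11:102925075-102925374, minus strand: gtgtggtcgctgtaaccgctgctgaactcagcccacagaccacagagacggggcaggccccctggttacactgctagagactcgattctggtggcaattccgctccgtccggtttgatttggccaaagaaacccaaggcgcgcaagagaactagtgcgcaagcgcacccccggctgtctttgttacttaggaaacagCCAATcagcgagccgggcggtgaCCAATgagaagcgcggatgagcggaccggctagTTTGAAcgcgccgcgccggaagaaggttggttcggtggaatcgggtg
Kif23, chr9:61946750-61947049, minus strand: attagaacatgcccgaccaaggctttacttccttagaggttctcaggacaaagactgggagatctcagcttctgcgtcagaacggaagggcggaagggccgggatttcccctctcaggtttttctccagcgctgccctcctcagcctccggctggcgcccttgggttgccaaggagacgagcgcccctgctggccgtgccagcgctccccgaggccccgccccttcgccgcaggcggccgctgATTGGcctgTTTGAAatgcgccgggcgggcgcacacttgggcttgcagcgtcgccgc
Kif18a, chr2:109280488-109280787, plus strand: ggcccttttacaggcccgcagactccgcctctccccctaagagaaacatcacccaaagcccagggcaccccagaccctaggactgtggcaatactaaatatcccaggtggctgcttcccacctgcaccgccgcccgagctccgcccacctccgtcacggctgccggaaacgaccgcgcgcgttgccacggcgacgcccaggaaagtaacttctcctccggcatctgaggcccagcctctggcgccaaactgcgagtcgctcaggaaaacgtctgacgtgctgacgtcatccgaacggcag
Kif24, chr4:41464799-41465098, minus strand: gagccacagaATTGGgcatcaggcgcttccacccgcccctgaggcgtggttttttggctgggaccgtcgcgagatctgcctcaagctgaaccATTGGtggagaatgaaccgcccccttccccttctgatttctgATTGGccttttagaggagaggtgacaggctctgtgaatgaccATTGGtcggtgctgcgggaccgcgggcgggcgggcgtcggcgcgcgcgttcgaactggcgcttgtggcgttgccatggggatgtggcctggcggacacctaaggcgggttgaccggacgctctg
Kif3a, chr11:53567119-53567418, plus strand: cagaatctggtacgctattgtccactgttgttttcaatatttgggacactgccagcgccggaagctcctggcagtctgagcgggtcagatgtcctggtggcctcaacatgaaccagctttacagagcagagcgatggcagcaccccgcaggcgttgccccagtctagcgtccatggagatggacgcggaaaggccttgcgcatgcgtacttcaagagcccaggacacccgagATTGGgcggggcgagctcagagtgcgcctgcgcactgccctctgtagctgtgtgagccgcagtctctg

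The CHR word was present in the windows of 9 of the 10 tested mitotic kinesins that have one. It was in 0 of the 10 windows of tested transport kinesins, which belong to 9 genes (the untested Kif1a has one at -44), and in 12.1% of the 12270 windows of all tested genes. Median GC content was 60.2% in the tested mitotic windows, 69.3% in the tested transport windows and 60.3% in windows of all tested genes. The part of GC content in these word counts was not tested. Counted from the start at position 0, the first letter of the CHR word lay at -19 in Kif11 and Kif15, at -17 in Kif22, at 2 in Kif23, at 3 in Kif18b, at 7 and 13 in Kif20b and at 19 in Kif4. Thus 7 of the 10 mitotic windows held it within 30 bases of the start, a distance set after seeing the positions, against 2.03% of windows of all tested genes. Kif14 had it only at -228 and Kif2c only at -103, while Kif15 and Kif22 had a further one upstream, at -234 and -215. The only Kif2c window (chr4:117178723-117179022, minus strand) lies inside the deposited gene (117159636 to 117182624), so its start is not that gene's 5′ end. A CCAAT word was present in 6 of the 10 mitotic windows, in 4 of the 10 transport windows and in 37.8% of windows of tested genes. Both words together were in 6 mitotic windows, in 0 transport windows and in 4.84% of windows of tested genes. The E2F words TTGGCGC or TTCCCGC or TTCGCGC or TTGCCGC, searched on both strands, were in 2 mitotic windows, Kif15 and Kif18a, against 16.1%, and in Kif15 the E2F word lies before the CHR word without overlap. Both words were also in 1 window of the other class and in 1 of the cilium and centriole class. These were Kif26b, with a CHR word at -9 and a CCAAT word at -73, and Kif27, with 3 CHR words farther upstream and a CCAAT word at -222. These are matches of letters, and no binding was measured. The CHR was searched only as TTTGAA on both strands, so other forms of it would be missed.

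**Figure D1:**
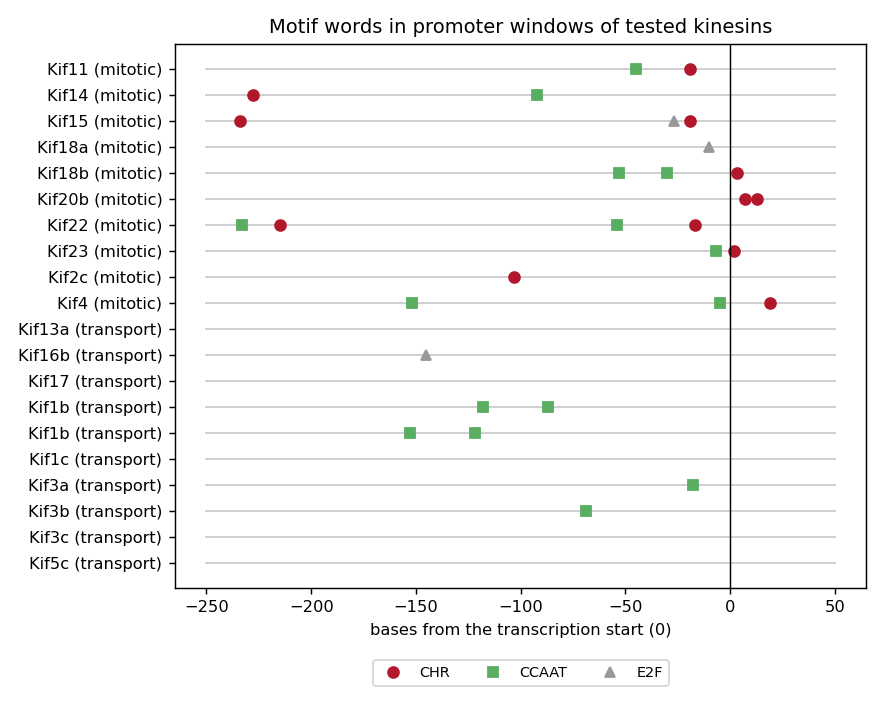
Positions of the CHR (circles), CCAAT (squares) and E2F (triangles) words in the 300-base promoter windows of tested mitotic and transport kinesins, 1 line per window, with the distance in bases from the transcription start on the horizontal axis. Kif1b has 2 windows. Circles lie in 9 of the 10 mitotic windows and in none of the transport windows.

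After 16 h of NU7441 all 11 tested mitotic kinesins were lower than in DMSO, each by at least 2-fold, with log2 fold changes from -1.52 for Kif18b to -1.22 for Kif18a and a median of -1.41. Over all 13784 genes tested, 16.6% were called lower and 14.1% higher at an adjusted p of 0.05 (2290 and 1941 genes, turning to 1919 and 2488 with upper-quartile scaling), 1.36% were lower by at least 2-fold, and the median was 0.01. The 12 tested transport kinesins lay between -0.16 and 0.44, with a median of 0.08, and 2 were lower, 3 higher and 7 not called. Over the whole family 16 of 32 tested members were lower and 5 higher. The samples are bulk RNA, in which fewer dividing cells and less RNA per cell cannot be told apart. Mki67, a marker of cycling cells, moved with the mitotic kinesins, from 323 ± 28.2 to 124 ± 13.7 CPM, and its part in the result was not tested. The difference between the classes was not tested, since the members were chosen with this contrast known.

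**Figure D2:**
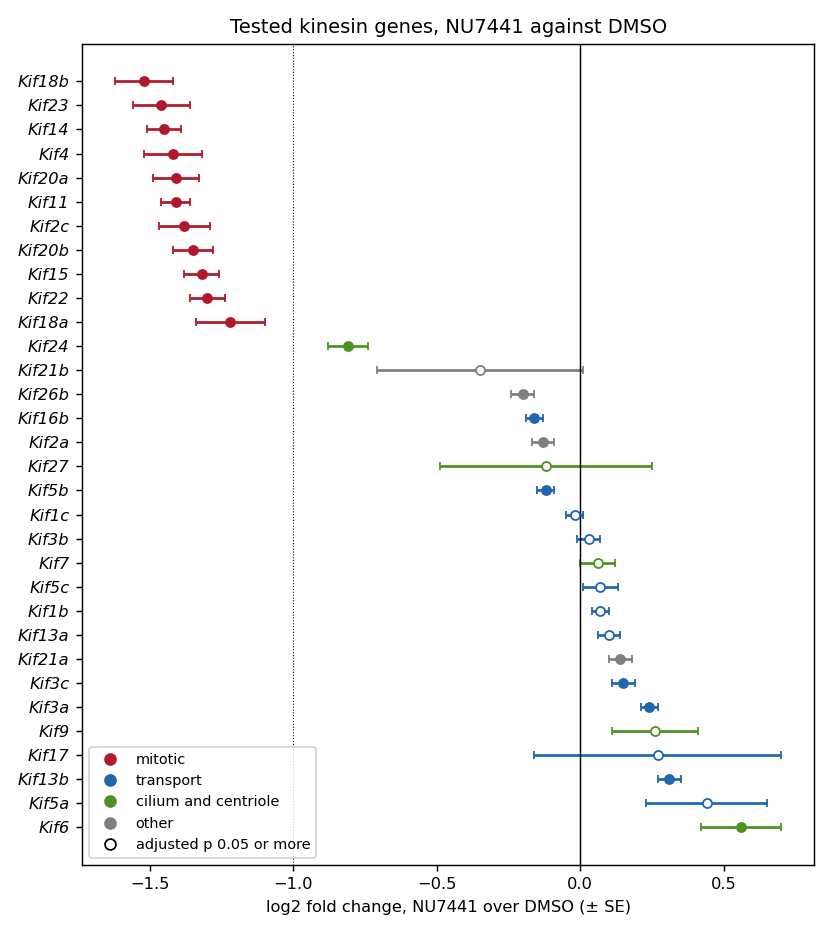
Log2 fold change of each of the 32 tested kinesin genes, NU7441 over DMSO, with SE bars, coloured by class. Open circles missed an adjusted p of 0.05, and the dotted line marks a 2-fold fall. The 11 mitotic kinesins lie left of the dotted line and no other member does.

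Among the motors that build the bipolar spindle, Kif11 is the one that slides antiparallel microtubules apart. Kif11 (chromosome 19, 37376403 to 37421859 on mm10) had 135, 123 and 121 CPM in DMSO and 52.0, 46.4 and 44.7 in NU7441. The groups were far apart, with the lowest DMSO sample above the highest NU7441 sample, and the log2 fold change was -1.41 ± 0.05 (SE; edgeR, adjusted p = 1.7e-10). Kif15, which can stand in for Kif11 in keeping the poles apart, had 38.3, 38.1 and 33.9 CPM in DMSO and 14.7, 15.6 and 13.9 in NU7441 (-1.32 ± 0.06, edgeR adjusted p = 4.4e-10). Its NU7441 samples were also all below its DMSO samples, as held for each of the 11 mitotic kinesins, against 22.2% of all tested genes whose NU7441 samples all lay below and 20.6% whose NU7441 samples all lay above.

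Kif2c, Kif18a and Kif18b act on microtubule ends at kinetochores and in the spindle. Kif2c takes microtubule ends apart and so frees wrongly attached chromosomes, and it had 27.9, 21.9 and 24.9 CPM in DMSO against 10.9, 9.12 and 8.73 in NU7441 (-1.38 ± 0.09, edgeR adjusted p = 2.4e-08). Kif18b, a partner of Kif2c at astral microtubules, showed the deepest fall of the family, from 28.7, 23.4 and 24.4 CPM to 10.4, 7.72 and 8.50 (-1.52 ± 0.10, edgeR adjusted p = 1.9e-08). Kif18a, which holds chromosomes at the metaphase plate, was the least abundant tested member of the class and had its smallest fall, from 13.0, 10.5 and 9.81 CPM to 5.61, 4.19 and 4.48 (-1.22 ± 0.12, edgeR adjusted p = 2.9e-06). Differences between single mitotic kinesins were not tested. Kif18a also had the fewest counts of the 11 tested members, 722, 498 and 704 in DMSO and 294, 228 and 234 in NU7441. Kif2b, a relative of Kif2c, had 0 counts in all 6 samples.

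The chromokinesins bind chromosome arms. Kif4 (chromosome X, 100626065 to 100727271), which also shortens the midzone with Prc1, had 50.02, 42.8 and 41.4 CPM in DMSO and 20.6, 14.6 and 14.8 in NU7441 (-1.42 ± 0.10, edgeR adjusted p = 6.7e-08). Kif22, which pushes chromosome arms away from the poles, had 25.0, 26.1 and 23.0 CPM in DMSO and 10.5, 10.3 and 9.39 in NU7441 (-1.30 ± 0.06, edgeR adjusted p = 1.4e-09). In Kif4 the first sample of each group was the highest by a visible margin, whereas the Kif22 samples of each group were close together.

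Kif14, Kif20a, Kif20b and Kif23 work at the midzone and in cytokinesis. Kif23, the motor subunit of centralspindlin, had 44.8, 40.5 and 38.3 CPM in DMSO and 18.3, 12.2 and 14.6 in NU7441 (-1.46 ± 0.10, edgeR adjusted p = 3.7e-08). Kif20a, which brings the chromosomal passenger complex to the midzone, had 74.4, 62.8 and 64.0 CPM in DMSO and 29.4, 23.7 and 22.6 in NU7441 (-1.41 ± 0.08, edgeR adjusted p = 7.3e-09). Kif20a shares 1595 bases with Cdc23 and 187 with Brd8 on the opposite strand, and the sources do not say if counting took strand into account. These neighbours had log2 fold changes of -0.15 and -0.12. Kif14, which recruits citron kinase, had 36.4, 34.3 and 32.4 CPM in DMSO and 13.8, 11.9 and 12.1 in NU7441 (-1.45 ± 0.06, edgeR adjusted p = 3.7e-10). Kif20b, needed for the final cut between daughter cells, had 68.5, 62.0 and 58.2 CPM in DMSO and 27.7, 24.2 and 22.1 in NU7441 (-1.35 ± 0.07, edgeR adjusted p = 2.4e-09). All 4 genes thus stood at 36.4% to 39.3% of their DMSO level, and Kif11, a spindle motor, at 37.7%.

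**Figure D3:**
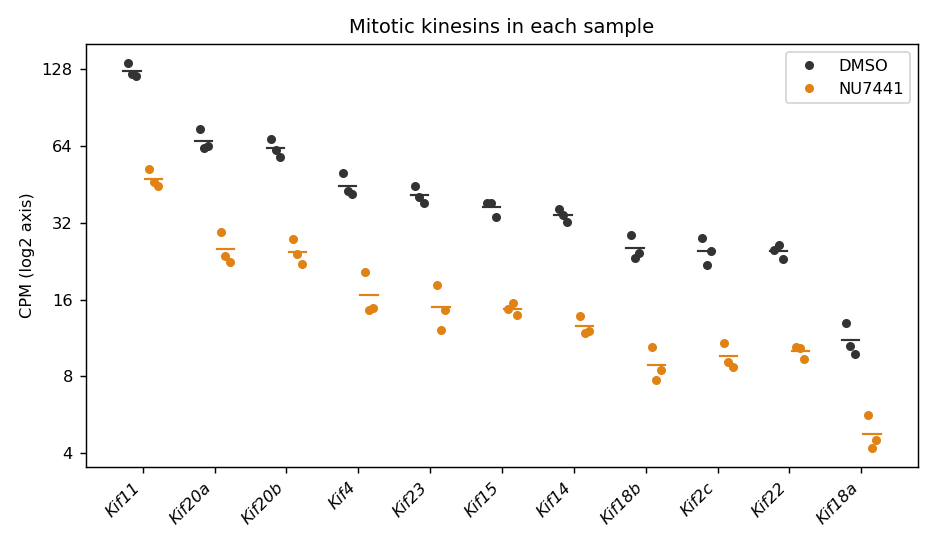
CPM of the 11 tested mitotic kinesins in each sample on a log2 axis, with bars for group means. For every gene the 3 NU7441 samples lie below the 3 DMSO samples, from Kif11 at 44.7 to 52.0 CPM in NU7441 down to Kif18a at 4.19 to 5.61.

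The mitotic kinesins also moved together within each group. DMSO sample 1 had the highest value of its group for 10 of the 11 genes, and NU7441 sample 1 likewise for 10 of the 11 in its own group. Set against the DMSO mean, the median log2 ratio of the 11 genes was 0.12, -0.04 and -0.10 for DMSO and -1.20, -1.45 and -1.51 for NU7441. The spread inside a group was therefore small beside the gap between groups. Without DMSO sample 1 the median log2 fold change of the class was -1.33, and without NU7441 sample 1 it was -1.48, with all 11 genes still at least 2-fold lower in both cases.

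Kinesins with mitotic roles but other symbols gave like values. Cenpe, which carries chromosomes to the spindle equator, had 102.3, 84.9 and 79.2 CPM in DMSO and 39.8, 28.5 and 29.4 in NU7441 (-1.45 ± 0.11, edgeR adjusted p = 1e-07). Kifc1, a minus-end motor that gathers spindle poles, went from 15.5 ± 1.40 to 5.99 ± 0.448 CPM (-1.37 ± 0.08, edgeR adjusted p = 1.5e-08). Kifc5b (-1.25 ± 0.13) is close in sequence to Kifc1, so the reads of these genes may have been split between them and both values are uncertain. Kifc2, a minus-end motor described mainly in neurons, rose instead, from 2.78 ± 0.149 to 4.04 ± 0.201 CPM (0.54 ± 0.12, edgeR adjusted p = 0.0034), and Kifc3 missed the threshold (-0.08 ± 0.04).

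Most spindle partners of these motors were lower too. Of 22 partners tested, 20 fell, 18 by 2-fold or more, and 1 rose, and the median log2 fold change was -1.39. Among all tested genes 16.6% fell, 1.36% by 2-fold or more, and 14.1% rose. Birc5 (-1.34 ± 0.05) and Incenp (-1.22 ± 0.05), cargo of Kif20a in the chromosomal passenger complex, Aurkb (-1.57 ± 0.06), its kinase, and Prc1 (-1.46 ± 0.06), the midzone bundler that Kif4 binds, had the lowest adjusted p-values of the list together with Kntc1 and Racgap1. Racgap1, which joins Kif23 in centralspindlin, had a log2 fold change of -1.28 ± 0.06. Of the remaining partners, the microtubule polymerase Ckap5 (-0.41 ± 0.04) and the plus-end binder Mapre1 (-0.21 ± 0.03) were lower by less than 2-fold, Mapre3 was higher (0.20 ± 0.05), and the spindle pole protein Numa1 was not called (0.05 ± 0.03). These 4 were named after their values were seen.

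Measured per length, mitotic and transport kinesins made up like parts of the family in DMSO, and transport kinesins the larger part in NU7441. The deposited RPKM values (counts per kilobase of gene length and per 1e6 reads) of the mitotic class summed to 98.3, 87.1 and 85.9 in DMSO and to 38.7, 31.6 and 31.0 in NU7441. The transport class summed to 94.2, 91.8 and 93.4 in DMSO and to 94.5, 90.2 and 92.6 in NU7441, so that its groups overlapped. As a share of all kinesin RPKM the mitotic class made up 43.6%, 41.5% and 40.6% in DMSO and 23.6%, 21.1% and 20.3% in NU7441. Transport kinesins accordingly went from 43.2% ± 1.27 (SD, n = 3) to 59.5% ± 1.56 of the family.

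**Figure D4:**
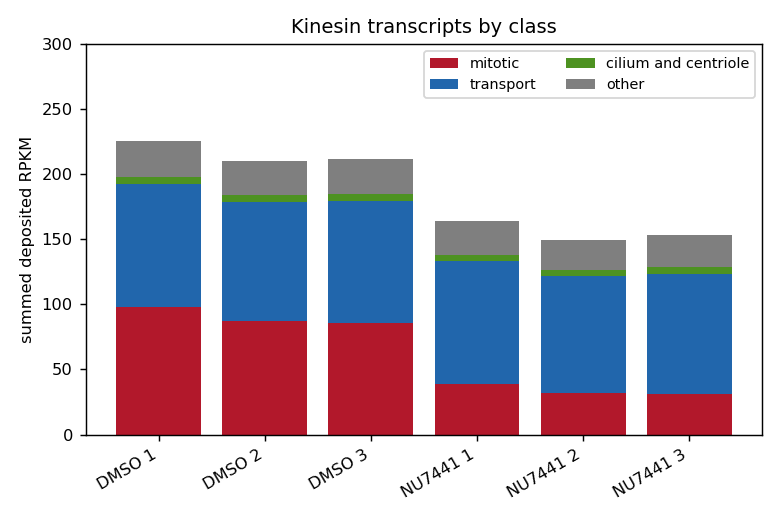
Summed deposited RPKM of the kinesin genes in each sample, stacked by class from a baseline of 0. The mitotic part falls from between 85.9 and 98.3 in DMSO to between 31.0 and 38.7 in NU7441, while the transport part stays between 90.2 and 94.5 in all 6 samples.

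In DMSO the order of single genes by RPKM began with Kif1c at 24.2 ± 0.518, Kif11 at 19.9 ± 1.24 and Kif5b at 18.2 ± 0.594, followed by Kif26b at 13.3 ± 0.683 and Kif20a at 13.0 ± 1.26. Kif11 and Kif5b, and likewise Kif26b and Kif20a, differed by less than the sum of their SDs. In NU7441 the order was Kif1c at 23.3 ± 0.881, Kif5b at 16.4 ± 0.719, Kif3a at 12.1 ± 0.237, Kif26b at 11.4 ± 0.825 and Kif16b at 9.62 ± 0.174, of which Kif3a and Kif26b differed by less than the sum of their SDs. Kif11 moved from rank 2 to rank 7 of the 38 rows and Kif20a from rank 5 to rank 12.

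The most abundant transport motor was not called. Kif1c, which carries integrins and other vesicle cargo toward the cell edge, had 218, 213 and 218 CPM in DMSO and 215, 206 and 218 in NU7441. These groups overlapped, and the log2 fold change was -0.02 ± 0.03 (edgeR, adjusted p = 0.64). Kif5b, the widely expressed heavy chain of conventional kinesin, had 150, 141 and 145 CPM in DMSO and 138, 131 and 131 in NU7441 (-0.12 ± 0.03, edgeR adjusted p = 0.0075). Its groups did not overlap, but the change was small, and without DMSO sample 1 Kif5b missed the threshold (-0.10, edgeR adjusted p = 0.06). Kif16b, a motor of early endosomes, had 79.9, 81.3 and 76.5 CPM in DMSO and 70.9, 70.8 and 70.4 in NU7441 (-0.16 ± 0.03, edgeR adjusted p = 0.0021). Kif5b and Kif16b were the 2 transport kinesins called lower.

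The subunits of kinesin-2, the motor of vesicle traffic and of transport inside cilia, did not all follow one course. Kif3a, a subunit shared by its different forms, had 77.8, 75.3 and 73.3 CPM in DMSO and 89.3, 88.3 and 89.1 in NU7441 (0.24 ± 0.03, edgeR adjusted p = 8.1e-05). Kif3b, its usual partner, had 60.4, 60.8 and 59.7 CPM in DMSO and 59.7, 61.7 and 63.4 in NU7441, groups that overlapped (0.03 ± 0.04, edgeR adjusted p = 0.56). Kif3c, the alternative partner, had 46.2, 46.5 and 47.8 CPM in DMSO and 53.3, 50.7 and 52.3 in NU7441 (0.15 ± 0.04, edgeR adjusted p = 0.0042). Kifap3, the accessory subunit that links the motor to cargo, went from 117 ± 0.877 to 126 ± 2.67 CPM (0.10 ± 0.03, edgeR adjusted p = 0.014), a call lost without DMSO sample 1 (adjusted p = 0.051), without DMSO sample 2 (0.058) or without NU7441 sample 3 (0.072). Kif3c shares 2612 bases with 1110002L01Rik on the opposite strand, which stood at 5.62 CPM in DMSO with a log2 fold change of 0.00.

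Kif13b, a carrier of membrane cargo toward the cell surface, was the third transport kinesin called higher, at 28.3, 27.6 and 29.1 CPM in DMSO and 33.8, 36.3 and 35.2 in NU7441 (0.31 ± 0.04, edgeR adjusted p = 4.1e-05). Its relative Kif13a (0.10 ± 0.04, edgeR adjusted p = 0.063) and Kif1b, a motor of mitochondria and vesicles (0.07 ± 0.03, edgeR adjusted p = 0.14), missed the threshold although their NU7441 samples all lay above their DMSO samples. Upper-quartile scaling called both and raised the number of higher transport kinesins from 3 to 5. Motors known chiefly from neurons were detected at unequal levels. Kif5a had 1.26, 1.22 and 1.59 CPM in DMSO and 1.38, 2.17 and 2.03 in NU7441 (0.44 ± 0.21, edgeR adjusted p = 0.13), Kif17 had at most 46 counts and Kif1a at most 8 in any sample, and Kif5c was at 16.4 ± 0.751 and 17.2 ± 0.741 CPM.

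**Figure D5:**
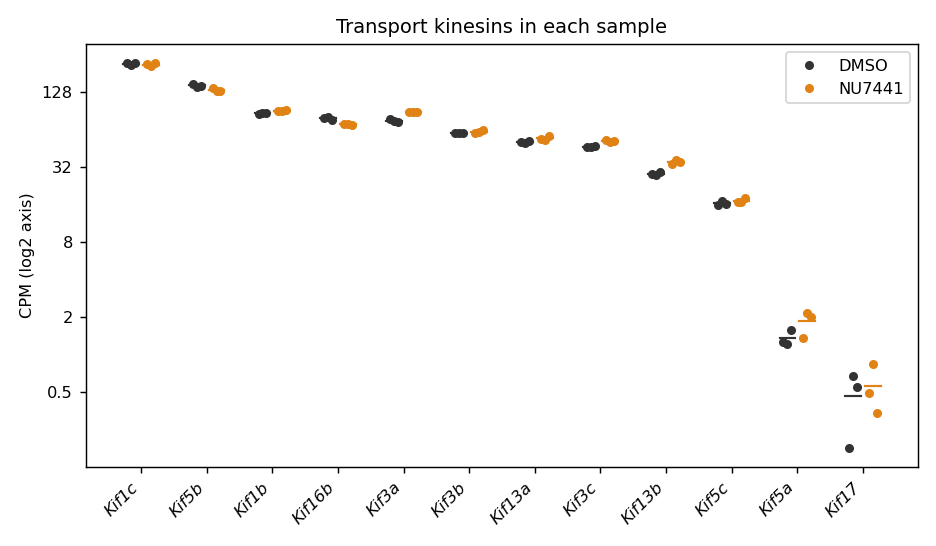
CPM of the 12 tested transport kinesins in each sample on a log2 axis, with bars for group means. The groups overlap for 5 genes, and NU7441 lies wholly above DMSO for 5 and wholly below for 2. Among all tested genes NU7441 lies wholly above for 20.6% and wholly below for 22.2%. Levels run from Kif1c at 206 to 218 CPM in all 6 samples down to Kif17 under 1 CPM.

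Among 18 tested light chains and adaptors, which load or accompany transport motors, 5 rose and 1 fell (median log2 fold change 0.08), where 14.1% and 16.6% of all tested genes did; upper-quartile scaling gave 7 higher. Mapk8ip1 (0.28 ± 0.04) and Mapk8ip3 (0.15 ± 0.03), scaffolds that bind kinesin light chains, Klc4 (0.27 ± 0.06), one of those light chains, and Hook3 (0.09 ± 0.03) were higher beside Kifap3, and Trak2 (-0.15 ± 0.04), a mitochondrial adaptor, was lower. The call of Trak2 was lost without DMSO sample 2 (edgeR, adjusted p = 0.053). That of Hook3 was lost with library size only and in 5 of the 6 fits with a sample left out (edgeR, adjusted p from 0.066 to 0.19; it was kept without DMSO sample 1). Klc1, a light chain of conventional kinesin, was at 94.1 ± 2.01 and 98.6 ± 2.76 CPM (edgeR, adjusted p = 0.15). Of 22 tested genes of dynein and dynactin, the motor that walks the other way, 4 fell and 2 rose (median 0.01), near the 16.6% and 14.1% of all tested genes. The largest of these was Nde1, a dynein regulator with a role in mitosis, at 50.5 ± 2.91 and 35.0 ± 0.815 CPM (-0.53 ± 0.04, edgeR adjusted p = 2.7e-07), whereas the dynein heavy chain Dync1h1 was at 674 ± 10.9 and 660 ± 15.9 CPM (edgeR, adjusted p = 0.44).

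In the cilium and centriole class 1 of 5 tested genes was lower and 1 higher, where 16.6% and 14.1% of all tested genes were. Kif24, a centriolar motor that holds back cilium formation together with CP110, had 14.0, 12.8 and 13.0 CPM in DMSO and 7.41, 8.01 and 7.24 in NU7441, groups far apart (-0.81 ± 0.07, edgeR adjusted p = 8.1e-07). Kif24 stood at 56.9% of its DMSO level against 34.8% to 43.0% for the mitotic class. Its window, shown above, holds 4 CCAAT words and no TTTGAA, the only form of the CHR searched. It does hold a near match, ttcgaa, which was not searched. Kif6, a motor of motile cilia, had 2.81, 2.91 and 2.73 CPM in DMSO and 3.63, 3.82 and 4.98 in NU7441 (0.56 ± 0.14, edgeR adjusted p = 0.0068), on 138 to 260 counts per sample. Kif7, a regulator of Hedgehog signalling at the cilium tip, had 13.2, 14.8 and 15.3 CPM in DMSO and 15.1, 14.96 and 15.1 in NU7441 (0.06 ± 0.06, edgeR adjusted p = 0.57), and its groups overlapped. Kif7 shares 48 bases with 5730590G19Rik, which had a log2 fold change of -1.19. Kif9 (0.26 ± 0.15) and Kif27 (-0.12 ± 0.37), both low, were not called, and Kif19a had 2 counts in 1 sample.

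Of the 4 other kinesins tested, 2 were lower and 1 higher, against 16.6% and 14.1% of all tested genes. Kif26b, which lacks motor activity and acts in cell adhesion and Wnt5a signalling, had 136, 124 and 130 CPM in DMSO and 120, 106 and 115 in NU7441 (-0.20 ± 0.04, edgeR adjusted p = 0.0029). Kif2a, a microtubule depolymerase like Kif2c that works at spindle poles and in cells that do not divide, had 45.2, 45.8 and 45.2 CPM in DMSO and 42.9, 39.9 and 42.0 in NU7441 (-0.13 ± 0.04, edgeR adjusted p = 0.016). Kif2a thus fell by 0.13 on the log2 scale where Kif2c fell by 1.38, and its call was lost without NU7441 sample 2 (-0.10, edgeR adjusted p = 0.081). Kif21a, which restrains microtubule growth at the cell cortex, had 46.7, 43.1 and 42.4 CPM in DMSO and 49.5, 47.5 and 48.2 in NU7441 (0.14 ± 0.04, edgeR adjusted p = 0.02). The call of Kif21a was lost with library size only (adjusted p = 0.056), without DMSO sample 2 (0.069), without DMSO sample 3 (0.089) and without NU7441 sample 1 (0.051). Kif21b was near the filter at 10 to 22 counts and was not called, and Kif12 and Kif26a had at most 2 counts in any sample.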

How the data were processed

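RNA-seq of 3 DMSO and 3 NU7441 samples was analysed from 1 deposited table. Per the file headers, the 23358 rows deposited by the authors hold counts beside RPKM values, and the submitters' processing notes name bcl2fastq, TopHat2 2.0.6, HTSeq and mm10 without settings. Coordinates are those of the table on mm10, and the 38 kinesin rows overlapped the gene of the same symbol in GENCODE M21. Genes were kept by filterByExpr (minimum count 10, minimum total 15). After TMM scaling, edgeR 4.0.16 (R 4.3.3) fitted its quasi-likelihood model to the deposited counts, group as the only term, two-sided, with p-values adjusted by Benjamini-Hochberg over the 13784 genes kept and a threshold of 0.05. The SE was the log2 fold change over the square root of F, and CPM used the scaled library sizes. The deposited RPKM served for levels between genes. The procedure was also run on simulated counts drawn from its own fitted dispersions. That checks the code and cannot show how the fit behaves on these data. Samples of 1 group differed beyond sampling noise in every pair (chi-square over degrees of freedom from 3.72 to 8.81). Members, classes, motifs and lists were chosen with earlier results of these data known, and all kinesin rows could be named, with up to 4 genes of each other list by adjusted p beside Cenpe, Kifc1, Kifap3, Klc1 and Mki67. Other genes named (Kifc2, Kifc3, Kifc5b, Kntc1, Racgap1, Ckap5, Mapre1, Mapre3, Numa1, Hook3, Dync1h1 and the markers) were named after their values were seen. Alternatives were other scalings, no filter, a robust fit, halved counts, DESeq2 1.42.0, a replicate block, other class borders and each sample left out.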

Additional observations from a re-analysis of the deposited data

How the results depend on the processing

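All 11 tested mitotic kinesins were called lower, by at least 2-fold, under each of the 14 other settings (other scalings, no filter, DESeq2, a robust fit, halved counts, the replicate block and each sample left out). The class median lay between -1.48 and -1.33 on the log2 scale, and the median of all genes between -0.014 and 0.031. The 2-fold statement depends on the class border. With Kif2a counted as mitotic, 12 of 12 were called lower, but Kif2a by only 0.13 (log2 fold change -0.13). With Cenpe and Kifc1 counted as mitotic, 13 of 13 were lower. With Kif21a and Kif21b counted as transport, 2 of 14 were lower and 4 higher. The numbers that moved were small. Upper-quartile scaling called 5 transport kinesins and 2 spindle partners higher. Library size only called 0 other kinesins higher, 2 adaptors lower and 1 dynein gene higher. With single samples left out, transport kinesins called lower numbered 1 to 2, other kinesins lower 1 to 2 and higher 0 to 1, adaptors lower 0 to 2 and higher 3 to 5, and dynein genes higher 1 to 3. The cause was not tested. With the replicate number as a block, 2 adaptors were called lower, Kif13a passed (adjusted p = 0.02), and over all genes 2703 were lower and 2417 higher, against 2290 and 1941. Upper-quartile scaling turned that balance, to 1919 and 2488, and library size only gave 2569 and 1553. Deviations of same-numbered samples correlated at 0.134, 0.088 and 0.047, and those of differently numbered samples at -0.12 to 0.034. The labels do not say whether the numbers pair the samples, so the main fit had no block. Among 993 recomputed values of 71 named genes, 36 lost a call, 9 gained one and 0 called genes changed direction. Kif27, Kif17, Kif7, Kif1c, Col1a1 and Runx2, none of them called, changed sign in 14 of these values.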
